A study of Mus musculus with 8 samples.

Results

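The levels of 10 genes of the G1 phase of the cell cycle were followed in irradiated mouse small intestine: the D-type cyclins Ccnd1, Ccnd2 and Ccnd3, the E-type cyclins Ccne1 and Ccne2, the kinases Cdk4 and Cdk6, and the inhibitors Cdkn1b (p27), Cdkn1c (p57) and Cdkn2c (p18). Members were the probes whose gene name on the array was one of these symbols, which gave 14 of 39429 probes: 3 for Cdk4, 2 each for Ccnd3 and Ccne1, and 1 for every other gene. Of the 10 genes, 8 were bright enough to be tested, among 21675 genes tested in all. Ccne2 and Cdk6 were not well above background on any of the 8 arrays.

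RNA came from 8-week-old females of the BALB/cA Jcl strain, from tissue labelled small intestine and called jejunum in the design text. The groups were FGF1/CPP-C with 8 Gy, FGF1 with 8 Gy, saline with 8 Gy and saline with 0 Gy, with 2 arrays each. FGF1 is fibroblast growth factor 1, FGF1/CPP-C is described in the series title as a chimeric protein, and all agents were injected intraperitoneally. The design text gives 12 h of pretreatment, and sampling followed 4 h after 8 Gy of carbon ions, charged particles with which tumours are treated. Neither growth factor was given without irradiation in the samples analysed here, so an effect of a growth factor on its own and one on the response to irradiation cannot be told apart. Whether both arrays of 1 group stem from different mice is not stated in the labels, so the spread behind each p-value is that between these arrays and may be technical.

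Cells decide in G1 whether to divide again. D-type cyclins, made in response to growth factors, bind CDK4 and CDK6 and begin to phosphorylate the retinoblastoma protein, which holds back E2F transcription factors; cyclin E with CDK2 then completes the step into S phase. Inhibitors of the INK4 family, such as p18, bind CDK4 and CDK6, whereas those of the Cip/Kip family, such as p27 and p57, bind cyclin-CDK complexes more broadly. In the intestinal epithelium, division is confined to the crypts, and DNA damage stops it through p53 and its target Cdkn1a (p21).

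A probe reports only the transcripts that carry its sequence, so the last 30 bases (positions 31 to 60, 5′ to 3′ as in the array files) are shown for the probes on which the results turn. The 2 Ccne1 probes differ in strength of signal, the 2 Ccnd3 probes lie on different chromosomes, and the Ccne2 probe was not well above background on any array. Capitals mark AATAAA, the commonest polyadenylation signal, which was searched for on the printed strand only and occurs 2 times in the brighter Ccnd3 probe.
Ccne1 A_51_P408946: gtaaggtgctgctatgtctatcaattttta
Ccne1 A_66_P125327: tcagccttatttattgcttcaaaacttgag
Ccnd3 A_55_P2041075: ctgctgccttAATAAAgatttcagAATAAA
Ccnd3 A_51_P238448: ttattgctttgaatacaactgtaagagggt
Ccnd1 A_66_P111562: gttttgtgttaattacagcattgtgctaat
Cdkn1c A_51_P339540: tgaaaactgtgcaatgtattgagaacactc
Ccne2 A_65_P10671: tgtataatttgtttataaactaatttgttt
Whole probes of 60 bases were compared for base composition. The Ccne2 probe was 15.0% G and C, against a median of 41.7% over 39429 probes, and 0.0% of probes were lower. The Ccnd1 probe was at 33.3%, the bright Ccne1 probe at 36.7% and the Cdkn1c probe at 45.0%.

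Per the array files, the probes lie in mouse build mm9 at chr7:152116202-152116261 for Ccnd1, chr6:127098696-127098755 for Ccnd2, chr5:3522106-3522165 for Cdk6, chr4:11131423-11131482 for Ccne2, chr6:134875424-134875483 for Cdkn1b, chr7:150644753-150644812 for Cdkn1c and chr4:109333508-109333567 for Cdkn2c. The bright Ccne1 probe lies at chr7:38883026-38883084 and the dim one at chr7:38885574-38885633. The Cdk4 probes lie at chr10:126504279-126504338 (A_55_P2163143, the brightest), chr10:126504174-126504233 and chr10:126503162-126503221. The Ccnd3 probe A_51_P238448 lies at chr17:47736267-47736326, on the chromosome of the gene, but the brighter A_55_P2041075 carries a Ccnd3 accession and is placed by the array files at chr4:138900307-138900366. Exon and UTR positions were not analysed here.

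The 75th percentile of the processed signal ran from 1735 to 2165 intensity units over the 8 arrays, 67.2% to 71.5% of probes were well above background, and Pearson r across genes between arrays of the same group was 0.982 to 0.993. Of 12 enterocyte markers on the array, 12 were well above background on every array. Their summed signal was highest with FGF1/CPP-C, at 1522 to 1622 times each array's 75th percentile. It was 1201 to 1325 with FGF1, 1055 to 1404 in 8 Gy saline and 1207 to 1410 in 0 Gy saline. The part of enterocyte content in the members' differences was not tested. Transcripts of 2 neighbouring organs also set some arrays apart. The summed signal of 12 stomach antrum markers, in multiples of each array's 75th percentile, was 0.592 to 0.633 in the FGF1/CPP-C arrays, 435 to 1024 with FGF1, 433 to 1202 in 8 Gy saline and 811 to 1150 in 0 Gy saline, and Sox2 among them was not well above background on any array. The median antrum marker was high on replicate 1 of 0 Gy saline, replicate 2 of 8 Gy saline and replicate 1 of FGF1 (log2 1.92, 3.05 and 1.62 relative to the 75th percentile), against -6.29 to -3.98 on the other 5 arrays. Pancreatic acinar markers had a median of 5.46 on that same 0 Gy array, 3.14 on that same 8 Gy saline array and -1.80 on replicate 1 of FGF1/CPP-C, against -5.28 to -3.89 elsewhere. Results are therefore also given without the 3 arrays with high antrum medians, where that matters.

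All levels below are log2 signals minus the array's 75th percentile of log2 signal, so that 0 is that percentile, and each gene is represented by its brightest probe. Differences were tested with limma over all genes, with an adjusted p under 0.05 (Benjamini-Hochberg) as the threshold. Levels of different genes come from different probes and are not compared with each other. In whole tissue, fewer cells of a type and less RNA per cell cannot be told apart.

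**Figure D1:**
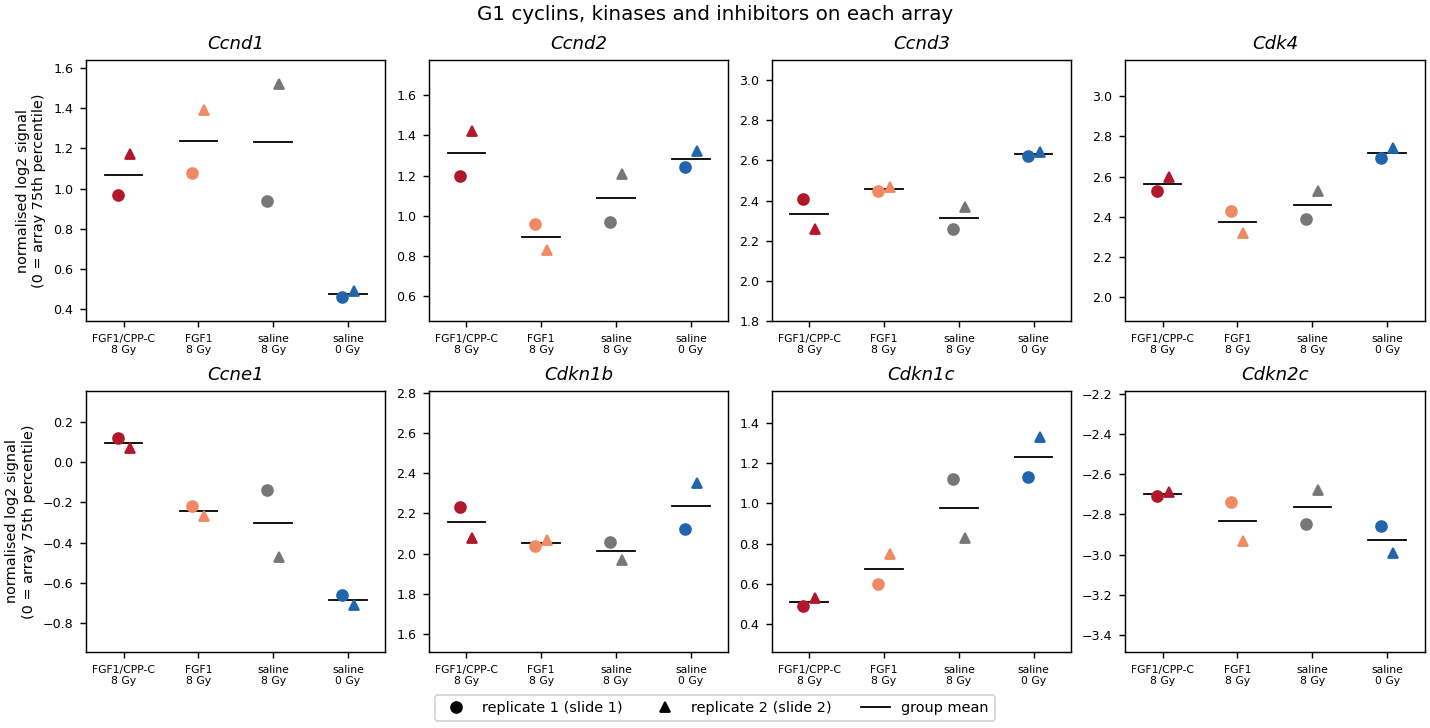
Normalised log2 signal (0 is the array's 75th percentile) of the 8 measured G1 genes on each of the 8 arrays, with groups from left to right FGF1/CPP-C 8 Gy, FGF1 8 Gy, saline 8 Gy and saline 0 Gy; circles are replicate 1 (slide 1), triangles replicate 2 (slide 2) and bars group means. Both 0 Gy arrays are the lowest for Ccnd1 and Ccne1 and the highest for Ccnd3 (brighter probe, placed on chromosome 4), Cdk4 and Cdkn1c. All panels span the same number of log2 units, each centred on its own gene.

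Ccne1 was the only member that passed the threshold in any of the 7 comparisons made. Cyclin E1 stood at 0.12 and 0.07 in FGF1/CPP-C arrays, -0.22 and -0.27 in FGF1 arrays, -0.14 and -0.47 in 8 Gy saline arrays, and -0.66 and -0.71 in 0 Gy saline arrays. The 2 FGF1/CPP-C arrays were the highest of the 8 and the 2 saline arrays at 0 Gy the lowest, while FGF1 and 8 Gy saline overlapped between them. Ccne1 rose with FGF1/CPP-C and 8 Gy, against 0 Gy saline, by 0.78 ± 0.13 (log2, SE; 1.72-fold; limma adjusted p = 0.0489), with the same difference of 0.78 on slide 1 and on slide 2. This was 1 of 8 members, beside 1.97% of all genes that passed in that comparison. With the slide as a block the adjusted p was 0.0630.

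The call on Ccne1 sat at the edge of the threshold, while the difference itself moved little. Over 17 alternative settings the log2 difference ran from 0.72 to 0.81 and the adjusted p from 0.0303 to 0.233. The call was lost without replicate 1 (limma adjusted p = 0.207) or replicate 2 (adjusted p = 0.212) of 0 Gy saline. It was also lost without replicate 1 (limma adjusted p = 0.217) or replicate 2 (adjusted p = 0.205) of FGF1/CPP-C, and without either FGF1 array (adjusted p = 0.112 each). Without the 3 arrays with high antrum medians the difference was 0.81. That fit leaves 1 array in every group but FGF1/CPP-C, too few to read its lack of calls. It also keeps the antrum contrast. Antrum sums on the kept arrays were 811 in 0 Gy saline, 433 in 8 Gy saline and 435 with FGF1. The antrum sums given above, under 1 in FGF1/CPP-C and at least 433 in all other groups, set only FGF1/CPP-C apart, since the other 3 groups overlapped, and their part in the Ccne1 difference was not tested.

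Against the same 2 arrays of 0 Gy saline, the other irradiated groups gave smaller Ccne1 differences that did not pass. FGF1 differed by 0.44 ± 0.13 (adjusted p = 0.178) and 8 Gy saline by 0.38 ± 0.13 (adjusted p = 0.319), and the mean of the 3 irradiated groups by 0.54 ± 0.11 (adjusted p = 0.0644). The 8 Gy saline difference in Ccne1 was 0.22 without replicate 1 of 8 Gy saline. The joint difference passed without replicate 1 (0.48, adjusted p = 0.0498) or replicate 2 (0.59, adjusted p = 0.0362) of 8 Gy saline. Within irradiated mice, Ccne1 was higher on both FGF1/CPP-C arrays than on both 8 Gy saline arrays, by 0.40 (95% interval 0.08 to 0.71), and than on both FGF1 arrays, by 0.34 (0.02 to 0.66), but neither difference passed over all genes (limma adjusted p = 0.372 and 0.527). Without replicate 2 of 8 Gy saline the first of these was 0.23.

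The second Ccne1 probe and the Ccne2 probe carried little signal. The dim Ccne1 probe had processed signals of 43.6 and 52.2 intensity units with FGF1/CPP-C, 45.8 and 38.7 with FGF1, 51.1 and 31.3 in 8 Gy saline, and 30.5 and 25.7 in 0 Gy saline, and was well above background on 4 arrays. After scaling to the 75th percentile, replicate 2 of 8 Gy saline (-6.11) was below both 0 Gy arrays (-5.94 and -6.08). This probe was not above background on both arrays of any group, so no fold is given. Ccne2, which encodes cyclin E2, had processed signals of 6.0 and 4.0 with FGF1/CPP-C, -2.1 and 5.1 with FGF1, 1.8 and 4.3 in 8 Gy saline, and 32.3 and -0.8 in 0 Gy saline. None of these was well above background.

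Ccnd1, the cyclin most directly tied to growth factor signals, was higher on every irradiated array than on either array at 0 Gy, but the difference did not pass. Its levels were 0.97 and 1.17 with FGF1/CPP-C, 1.08 and 1.39 with FGF1, 0.94 and 1.52 in 8 Gy saline, and 0.46 and 0.49 in 0 Gy saline. The 3 irradiated groups overlapped one another, and replicate 1 was the lower in each of them. The mean of the irradiated groups differed from 0 Gy saline by 0.70 ± 0.17 (1.63-fold, limma adjusted p = 0.102, and 0.0745 with the slide as a block). The separate differences from 0 Gy saline were 0.59 with FGF1/CPP-C, 0.76 with FGF1 and 0.75 in 8 Gy saline (adjusted p = 0.190, 0.167 and 0.252). The 8 Gy saline difference was 0.46 without replicate 2 and 1.05 without replicate 1 of 8 Gy saline. Without replicate 1 of 8 Gy saline the joint difference was 0.80 and passed (adjusted p = 0.0490). The 8 Gy saline difference in Ccnd1 was 0.45 without the 3 arrays with high antrum medians (adjusted p = 0.530), which leaves 1 array in each of those 2 groups.

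Ccnd2, a D-type cyclin that can pair with the same kinases, did not follow Ccnd1. It stood at 1.20 and 1.42 with FGF1/CPP-C, 0.96 and 0.83 with FGF1, 0.97 and 1.21 in 8 Gy saline, and 1.24 and 1.32 in 0 Gy saline. FGF1 arrays were the 2 lowest, and the FGF1/CPP-C arrays lay on both sides of the 0 Gy arrays. The widest gap was between FGF1/CPP-C and FGF1, 0.41 (95% interval 0.09 to 0.73, adjusted p = 0.459). The mean of the irradiated groups differed from 0 Gy saline by -0.18 ± 0.11 (adjusted p = 0.393).

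For Ccnd3, the answer depended on the probe. The brighter probe, placed on chromosome 4, gave 2.41 and 2.26 with FGF1/CPP-C, 2.45 and 2.47 with FGF1, 2.26 and 2.37 in 8 Gy saline, and 2.62 and 2.64 in 0 Gy saline, with every irradiated array below both 0 Gy arrays. The probe on chromosome 17 gave 0.98 and 1.09 with FGF1/CPP-C, 1.05 and 1.27 with FGF1, 1.03 and 1.17 in 8 Gy saline, and 1.02 and 1.43 in 0 Gy saline, with the 0 Gy arrays on both sides of the others. For the irradiated groups against 0 Gy saline, the difference was -0.26 ± 0.08 with the first probe and -0.13 ± 0.13 with the second (limma adjusted p over all probes 0.148 and 0.642), so neither passed.

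Cdk4, the catalytic partner of the D-type cyclins, gave the same picture on all 3 of its probes. The brightest read 2.53 and 2.60 with FGF1/CPP-C, 2.43 and 2.32 with FGF1, 2.39 and 2.53 in 8 Gy saline, and 2.69 and 2.74 in 0 Gy saline. Both 0 Gy arrays were above every irradiated array on each probe. The differences of the irradiated groups from 0 Gy saline were -0.25 ± 0.08, -0.22 ± 0.08 and -0.25 ± 0.09 on the 3 probes, with limma adjusted p over all probes of 0.172, 0.201 and 0.221. None passed, and the probes of 1 gene share the same RNA and are not replicates. Cdk6, the other D-cyclin kinase, had processed signals of 20.3 to 28.4 intensity units over the 8 arrays, none well above background.

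**Figure D2:**
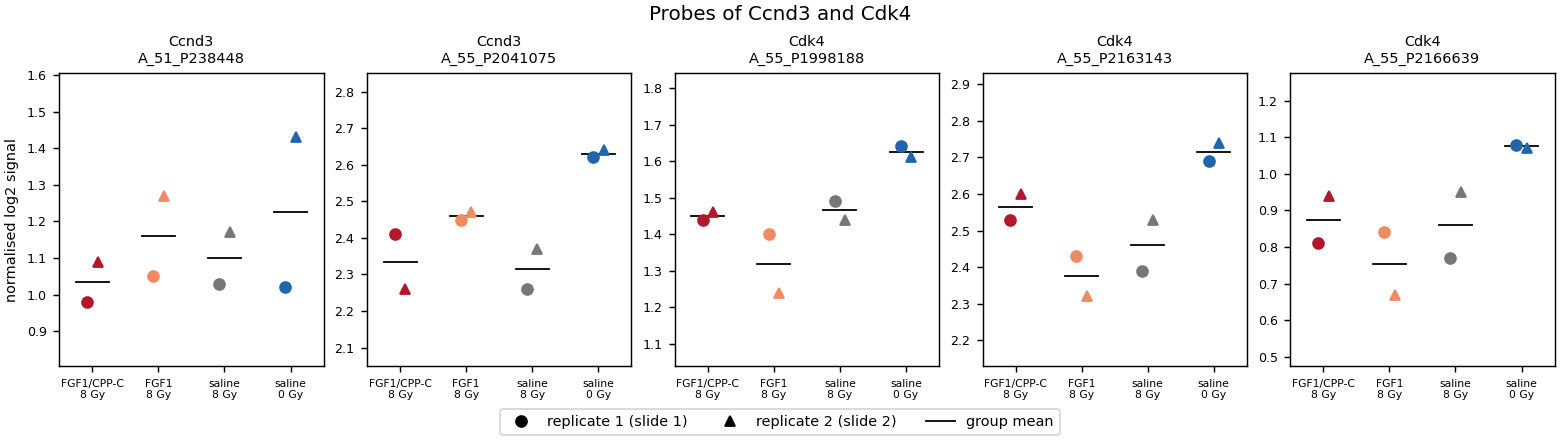
Normalised log2 signal of the 2 Ccnd3 probes and the 3 Cdk4 probes on each array, groups from left to right FGF1/CPP-C 8 Gy, FGF1 8 Gy, saline 8 Gy and saline 0 Gy; circles are replicate 1, triangles replicate 2 and bars group means. The 0 Gy arrays are above all irradiated arrays on every probe except Ccnd3 A_51_P238448, where they stand at 1.02 and 1.43.

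Of the 3 inhibitors among the members, Cdkn1c had the widest range of group means, and it passed in no comparison. This gene, which encodes p57, an imprinted inhibitor of the Cip/Kip family, stood at 0.49 and 0.53 with FGF1/CPP-C, 0.60 and 0.75 with FGF1, 1.12 and 0.83 in 8 Gy saline, and 1.13 and 1.33 in 0 Gy saline. The 4 groups did not overlap, in that order from low to high, and 8 Gy saline reached 1.12 against 1.13 on the nearest 0 Gy array. Between pairs of groups, 19% to 60% of all genes did not overlap, and the share for all 4 groups was not computed. FGF1/CPP-C differed from 0 Gy saline by -0.72 ± 0.14 (1.65-fold lower, limma adjusted p = 0.0651), FGF1 by -0.55 ± 0.14 (adjusted p = 0.137) and 8 Gy saline by -0.26 ± 0.14 (adjusted p = 0.536), all against the same 2 arrays and none passing. The 8 Gy saline difference was -0.11 without replicate 2 of 8 Gy saline, -0.40 without its replicate 1 and -0.15 without replicate 2 of 0 Gy saline.

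In the limma fit, the first of these Cdkn1c differences passed with normexp background correction (-0.73, adjusted p = 0.0451) and with the series matrix (-0.78, adjusted p = 0.0429). It also passed without either array of 8 Gy saline. In the other 13 of 17 alternative settings it did not pass, among them the slide as a block (limma adjusted p = 0.100). Without the 3 arrays with high antrum medians it was -0.82, in a fit that leaves 1 array of 0 Gy saline. For the mean of the irradiated groups the difference was -0.51 ± 0.11 (limma adjusted p = 0.0792). With the series matrix values it was -0.54 and passed (adjusted p = 0.0487), but in 15 of 16 alternative settings it did not pass. Within irradiated mice, FGF1/CPP-C was below 8 Gy saline by 0.46 on the log2 scale (difference -0.46, 95% interval -0.80 to -0.13, adjusted p = 0.359).

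Smooth muscle transcripts were lowest in the group with the lowest Cdkn1c, but did not follow Cdkn1c array by array. The summed signal of 9 smooth muscle markers (Acta2, Actg2, Myh11, Des and others, all well above background on every array) was 86.1 to 91.8 times the 75th percentile with FGF1/CPP-C, 108 to 115 with FGF1, 109 to 162 in 8 Gy saline and 125 to 134 in 0 Gy saline. FGF1/CPP-C was lowest for both. Within every group but FGF1, the array with more muscle signal had the lower Cdkn1c. In 8 Gy saline the muscle sum was 109 on replicate 1 and 162 on replicate 2, where Cdkn1c stood at 1.12 and 0.83. The part of muscle content in the Cdkn1c difference was not tested.

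Cdkn1b (p27), which holds cyclin E-CDK2 in check in resting cells, and Cdkn2c (p18), an INK4 inhibitor, differed little. Cdkn1b stood at 2.23 and 2.08 with FGF1/CPP-C, 2.04 and 2.07 with FGF1, 2.06 and 1.97 in 8 Gy saline, and 2.12 and 2.35 in 0 Gy saline. Cdkn2c stood at -2.71 and -2.69 with FGF1/CPP-C, -2.74 and -2.93 with FGF1, -2.85 and -2.68 in 8 Gy saline, and -2.86 and -2.99 in 0 Gy saline. For the irradiated groups against 0 Gy saline both overlapped between the groups, with differences of -0.16 ± 0.10 for Cdkn1b (adjusted p = 0.411) and 0.16 ± 0.09 for Cdkn2c (adjusted p = 0.414).

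**Figure D3:**
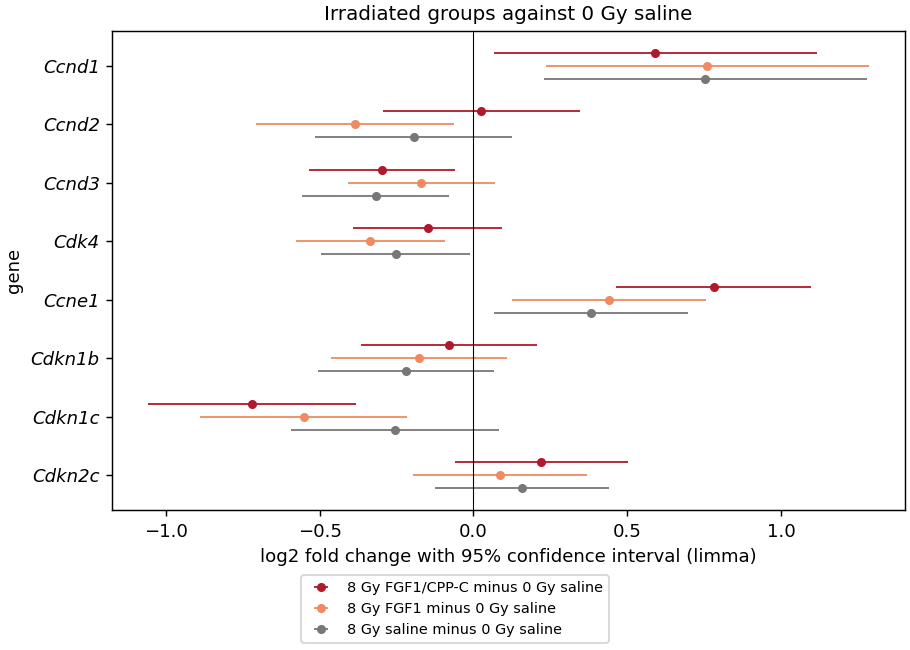
Log2 fold change of each measured G1 gene with its 95% confidence interval from limma, for FGF1/CPP-C, FGF1 and saline at 8 Gy, each minus the same 2 arrays of 0 Gy saline; the vertical line marks no difference. Ccne1 with FGF1/CPP-C, at 0.78, was the only difference with an adjusted p under 0.05, and Cdkn1c with FGF1/CPP-C stood at -0.72.

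Read against all genes, the members' counts were as follows. For 8 Gy saline against 0 Gy saline 0 of 8 members passed, beside 0.411% of all genes, and for FGF1 against 0 Gy saline 0 of 8, beside 0.858%. For the mean of the irradiated groups 0 of 8 passed, beside 2.39%. At an unadjusted p under 0.05 these 3 comparisons held 4, 5 and 5 members of 8, beside 12.3%, 16.7% and 20.7% of all genes, and FGF1/CPP-C against 0 Gy saline held 4, beside 22.1%. The median log2 difference of the 8 members in these 4 comparisons was -0.21, -0.17, -0.17 and -0.03, with medians of -0.05, -0.05, -0.05 and -0.02 over all genes tested. Groups did not overlap for 8, 7, 5 and 6 of the 8 members in turn, beside 38.5%, 51.2%, 22.9% and 60% of all genes. Ccnd3 entered all these counts and medians through its brighter probe, placed on chromosome 4. On its chromosome 17 probe the groups overlapped in all 4 comparisons, with unadjusted limma p of 0.480, 0.697, 0.383 and 0.297 in turn.

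Markers of dividing cells were lower after irradiation. The sum of 10 markers of cycling cells (such as Mki67, Top2a and Cdk1; Aurkb was not well above background on any array) was 13.3 to 13.8 times the 75th percentile with FGF1/CPP-C, 10.1 to 10.5 with FGF1, 10.7 to 12.1 in 8 Gy saline and 20.0 to 22.5 in 0 Gy saline. All irradiated arrays were below both 0 Gy arrays, the same split as for Cdk4, Cdkn1c and the brighter Ccnd3 probe, and opposite to Ccnd1 and Ccne1. Of all genes, 22.9% separated these groups in 1 direction or the other. The sum of 7 endothelium markers was split in the same way. It was 5.98 to 6.61 with FGF1/CPP-C, 5.92 to 6.62 with FGF1, 6.16 to 6.34 in 8 Gy saline and 7.48 to 8.58 in 0 Gy saline. The part of dividing cells or of endothelium in the members' differences was not tested.

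Within irradiated mice no member passed in any comparison between pretreatments. For FGF1 against 8 Gy saline 0 of 8 members passed, beside 0% of all genes, and 0 had an unadjusted p under 0.05, beside 1.71%. For FGF1/CPP-C against 8 Gy saline 0 of 8 passed, beside 0.00923% of all genes, and 2 (Ccne1 and Cdkn1c) had an unadjusted p under 0.05, beside 11.8%. For FGF1/CPP-C against FGF1 0 of 8 passed, beside 0.0138%, and 2 (Ccnd2 and Ccne1) had an unadjusted p under 0.05, beside 9.04%. Groups did not overlap for 3, 4 and 7 of the 8 members in these 3 comparisons, beside 19%, 44.4% and 45.5% of all genes. Ccnd3 was again counted by its brighter probe, and on its chromosome 17 probe the groups overlapped in all 3. The median differences of the members were -0.03, 0.08 and 0.12, with 0.01, 0.04 and 0.02 over all genes tested. These comparisons do not show that the pretreatments act alike.

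The intervals show what sizes the arrays leave possible. For Ccnd1, the difference of FGF1/CPP-C from 8 Gy saline was -0.16 with a 95% interval of -0.69 to 0.36, and that of FGF1 from 8 Gy saline was 0.01, from -0.52 to 0.53. For Ccne1, FGF1 differed from 8 Gy saline by 0.06, from -0.26 to 0.37. For Cdkn1c, FGF1 differed from 8 Gy saline by -0.30, from -0.64 to 0.04, and FGF1/CPP-C from FGF1 by -0.17, from -0.50 to 0.17. Intervals were widest for Ccnd1, whose 2 arrays of 8 Gy saline stood at 0.94 and 1.52.

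**Figure D4:**
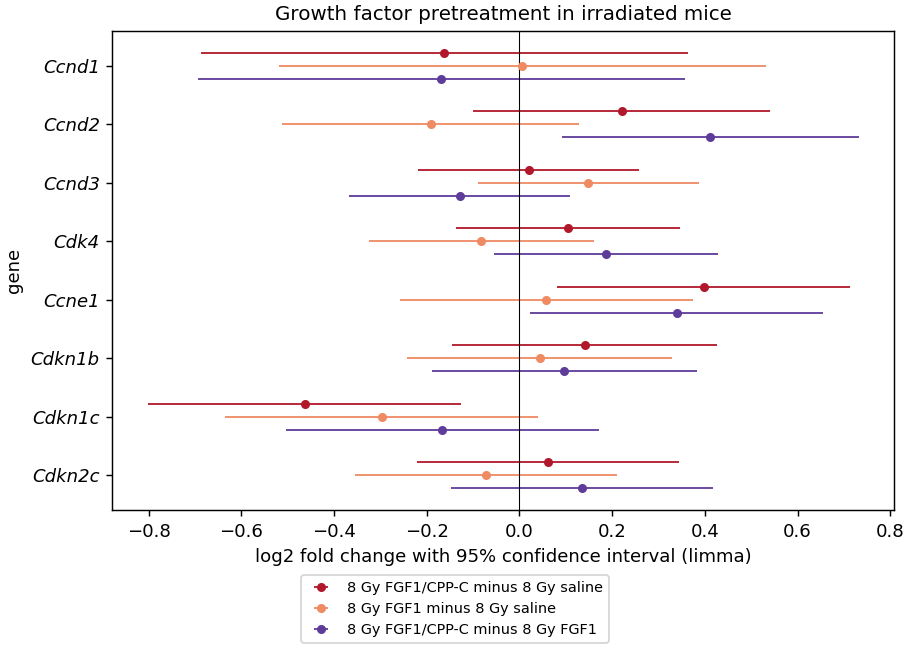
Log2 fold change of each measured G1 gene with its 95% confidence interval from limma, between the irradiated groups: FGF1/CPP-C minus saline, FGF1 minus saline and FGF1/CPP-C minus FGF1, all at 8 Gy. The intervals that do not reach 0 are those of Ccne1 and Cdkn1c for FGF1/CPP-C minus saline and of Ccnd2 and Ccne1 for FGF1/CPP-C minus FGF1, and no difference passed over all genes.

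The wider G1/S machinery was described with 39 other genes, all of them measured, covering CDK2 and its cyclins, E2F and retinoblastoma proteins, ubiquitin ligase parts and the p53 arm. The list was chosen with earlier results of these data known, and its p53 arm includes Ccng1, Mdm2 and Cdkn1a. The shares of all genes below are therefore no test of the G1/S machinery as a whole. For the mean of the irradiated groups against 0 Gy saline 4 of 39 rose and 1 fell, beside 1.35% and 1.04% of all genes. The median of the 39 differences was 0.11, with -0.05 over all genes. For FGF1/CPP-C, FGF1 and 8 Gy saline, each against 0 Gy saline, 4, 3 and 2 rose, beside 1.22%, 0.591% and 0.314% of all genes, and 0, 1 and 0 fell, beside 0.752%, 0.268% and 0.0969%. With the slide as a block, these counts were 3, 2 and 1 higher and 0 lower in each: Cdkn1a with FGF1/CPP-C (limma adjusted p = 0.0513) and with FGF1 (adjusted p = 0.0691), Mdm2 in 8 Gy saline (adjusted p = 0.0531) and Ccna2 with FGF1 (adjusted p = 0.0887) no longer passed. Between irradiated groups 0 of 39 passed in each of 3 comparisons.

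Those that rose were Ccng1, Mdm2, Cdkn1a and E2f7. Ccng1 (cyclin G1, a p53 target) stood at 2.52 and 2.58 with FGF1/CPP-C, 2.84 and 2.66 with FGF1, 2.69 and 3.16 in 8 Gy saline, and 0.42 and 0.00 in 0 Gy saline, with no overlap. Its difference for the irradiated groups was 2.53 ± 0.17 (5.79-fold, limma adjusted p = 0.00556). Mdm2, the ubiquitin ligase that limits p53, rose by 1.19 ± 0.11 (adjusted p = 0.0111) and Cdkn1a (p21), the p53-induced inhibitor of the Cip/Kip family, by 0.97 ± 0.10 (adjusted p = 0.0148).

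E2f7, a repressor of the E2F family, had levels of -1.46 and -1.41 with FGF1/CPP-C, -1.82 and -1.81 with FGF1, -1.76 and -1.89 in 8 Gy saline, and -2.74 and -2.41 in 0 Gy saline. E2f7 rose by 0.88 ± 0.11 in the irradiated groups (limma adjusted p = 0.0232). Like Ccne1, and like several more of the 39 genes, E2f7 was highest on both FGF1/CPP-C arrays, and the share of all genes with that pattern was not computed. Its difference between FGF1/CPP-C and 8 Gy saline, 0.39, did not pass (adjusted p = 0.380). Ccna2, the cyclin of S phase, fell by 0.77 ± 0.11 (adjusted p = 0.0332, and 0.0562 with the slide as a block), and stood at 0.45 and 0.62 with FGF1/CPP-C, 0.13 and 0.12 with FGF1, 0.27 and 0.09 in 8 Gy saline, and 0.92 and 1.18 in 0 Gy saline.

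**Figure D5:**
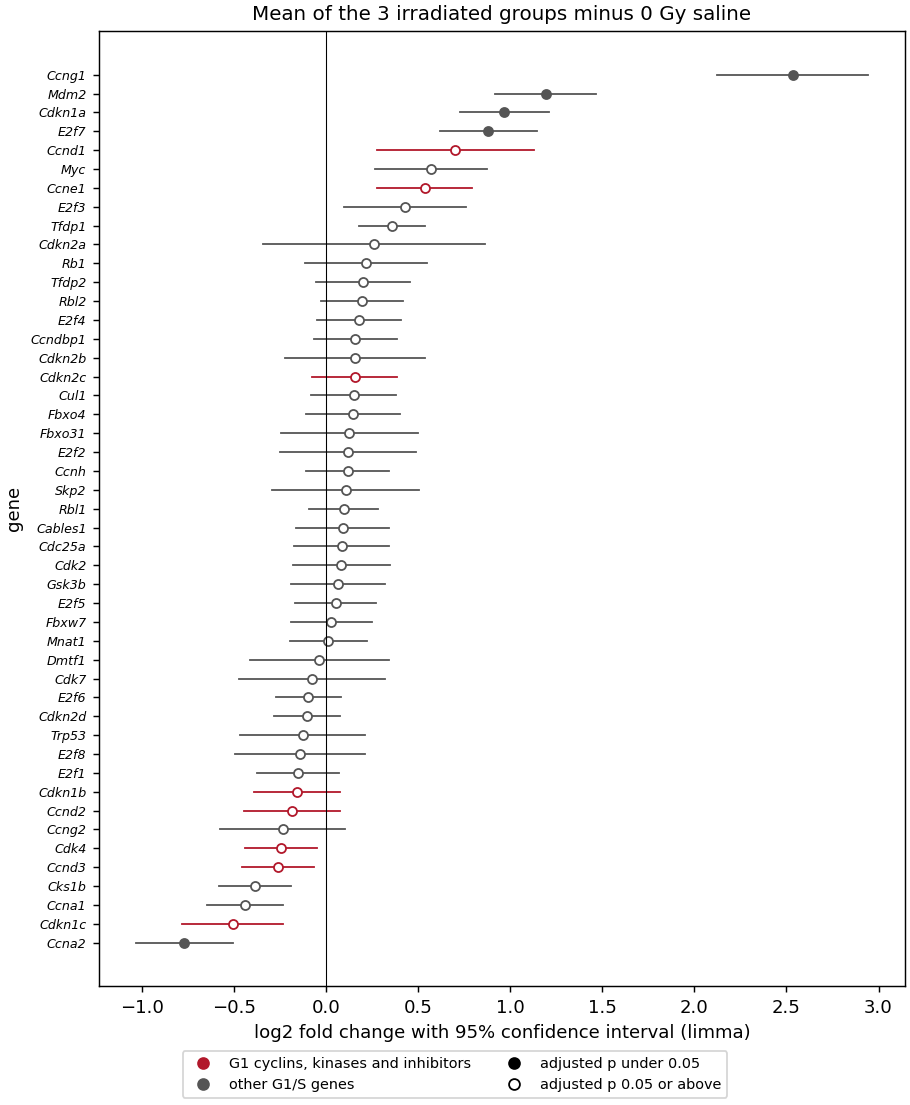
Log2 fold change of the mean of the 3 irradiated groups minus 0 Gy saline, with 95% confidence intervals from limma, for the 8 measured members (red) and 39 other G1/S genes (grey), ordered by size; filled points have an adjusted p under 0.05. Ccng1, Mdm2, Cdkn1a, E2f7 and Ccna2 are filled, and Ccnd1 and Ccne1 are open points at 0.70 and 0.54, with Myc between them at 0.57.

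For the 3 members with the widest range of group means, the genes of most similar pattern were found by Pearson correlation over the 8 arrays among 15413 named genes. Ccne1, with a range of 0.78, had Fam102b (r = 0.994) and Fbxl5 (r = 0.993) among the genes most like it. Ccnd1, with a range of 0.76, was most like Arhgap23 (r = 0.989), Adprhl2 (r = 0.972) and Pik3r4 (r = 0.970). Cdkn1c, with a range of 0.72, was most like Rock1 (r = 0.981), Gatc (r = 0.970) and Rergl (r = 0.963). The 8 points share 2 slides and 4 groups, and the genes were picked as the most alike of all those searched, so these are descriptions only.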

How the data were processed

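Each of 8 Agilent 1-colour arrays carried Cy3-labelled RNA. RNA was isolated with Trizol and RNeasy and labelled by the Low Input Quick Amp procedure, according to the labels' protocols, and images were quantified with Agilent Feature Extraction 9.5.3.1, per the submitters' processing notes. The deposited processed signal is a background-subtracted intensity on a linear scale, not scaled between arrays, and the deposited series matrix holds the same intensity values. The setting with series matrix values set no floor and applied no outlier flags. Its 75th percentile was taken over spots with a value on all arrays. It differs in processing and is not separate data. Slide 1 held all replicates numbered 1 and slide 2 those numbered 2, per the file headers.

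From the processed signal, log2 was taken relative to each array's 75th percentile, with a floor of -7. Control spots (1377 per array) and outlier spots were left out, and spots of 1 probe were averaged (43020 spots, 39429 probes). Probes were named by accession (28330) or symbol (2204) through RefSeq names of GRCm38.p6, of which no coordinate was used, or kept the array's name (8895). Probes entered the tests if some group had both of its arrays well above background, with the brightest probe standing for a gene. The fit, in R 4.3.3 with limma 3.58.1 and the package data.table (version 1.17.8), estimated 4 group means from 8 arrays, after the code was tested on simulated data. Figures used matplotlib 3.10.9 in Python 3.11.15. The number of arrays limits the precision.

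The replicate number is the slide, per the file headers, so a fit with it as a block was an alternative. Deviations of same-numbered arrays from their group means correlated between -0.519 and 0.536 over the 6 pairs of groups. A slide holds 1 array of each group, so within a slide a difference has no test. Other alternatives were averaged or single probes for a gene, no filter on dim probes or a stricter one, the series matrix values, normexp (offset 50), quantile normalisation, a fit to the groups compared alone, leaving out each array, and leaving out 3 arrays, the last chosen after the values were seen. The members, gene lists and markers were chosen with earlier results of these data known. All 10 members were named, with the other G1/S genes that passed in any comparison and the 4 of smallest p for 8 Gy saline and for the irradiated groups against 0 Gy saline. Of the genes most similar in pattern to 3 members, up to 3 per member were taken, and 1 is not reported here.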

Additional observations from a re-analysis of the deposited data

How the results depend on the processing

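Over 56 differences of members, 965 alternative values were computed, and 918 kept both direction and side of the threshold; 10 lost the call, all of them Ccne1 for FGF1/CPP-C against 0 Gy saline, 8 gained one and 29 changed sign. The members that passed for FGF1/CPP-C against 0 Gy saline (1) numbered 2 with normexp or the series matrix and 0 with no filter on dim probes, with the replicate block, with only the groups compared or without the 3 arrays with high antrum medians; leaving out 1 array gave 0 to 2. For the irradiated groups (0) the series matrix gave 1 and leaving out 1 array 0 to 2; in the other 5 comparisons leaving out 1 array gave 0 members. Over all genes, 8 Gy saline against 0 Gy saline (89 passed) gave 136 with normexp, 41 with no filter, 37 with the replicate block, 0 with only the groups compared and 0 to 44 without 1 array. FGF1 against 0 Gy saline (186) gave 310 with normexp, 76 with the block, 3 with only the groups compared and 0 to 169 without 1 array. FGF1/CPP-C against 0 Gy saline (427) gave 263 genes with no filter, 176 with the block, 10 with only the groups compared and 11 to 817 without 1 array. The irradiated groups (517) gave 245 genes with the block and 1 to 598 without 1 array. FGF1/CPP-C against 8 Gy saline (2) gave 4 genes with normexp or the mean of probes, 9 with no filter, 1 with probes above background on all 8 arrays, 0 with the matrix or only the groups compared and 2 to 4 without 1 array. FGF1/CPP-C against FGF1 (3) gave 6 genes with quantile normalisation or the mean of probes, 10 with normexp, 9 with no filter, 1 with probes above background on all 8 arrays, 0 with the matrix or only the groups compared and 2 to 5 without 1 array. FGF1 against 8 Gy saline (0, with 371 at an unadjusted p under 0.05) gave 0 to 1. The fit without the 3 arrays left 1 array in every group but FGF1/CPP-C, too few to read its lack of calls in all 7 comparisons. Fewer arrays also enter the fits without 1 array. Causes were otherwise not tested.

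Sign changes were all of small differences that had not passed. For FGF1 against 8 Gy saline, Ccnd1 (0.01) was -0.011 with quantile, -0.0059 with normexp and -0.028 with the matrix, and -0.29 to 0.30 without 1 array. Ccne1 (0.06) was -0.14 without the 3 arrays and -0.11 to 0.23 without 1 array, Cdkn1b (0.04) was -0.0033 to 0.090 and Cdkn2c (-0.07) -0.17 to 0.022 without 1 array. For FGF1/CPP-C against 8 Gy saline, Ccnd1 (-0.16) was 0.13 without the 3 arrays and -0.45 to 0.13 without 1 array. Ccnd3 (0.02) was -0.012 with quantile, -0.0027 with normexp, -0.043 with the matrix, -0.022 with the mean of probes, -0.064 with probe A_51_P238448 alone and -0.052 to 0.092 without 1 array. Cdk4 (0.10) was -0.011 with probe A_55_P1998188 alone, and Cdkn2c (0.06) was -0.00067 with the matrix and -0.025 to 0.15 without 1 array. Against 0 Gy saline, Cdkn2c with FGF1 (0.09) was -0.0066 to 0.18 without 1 array. With FGF1/CPP-C, Ccnd2 (0.03) was -0.022 with quantile, -0.034 with the matrix, -0.012 without the 3 arrays and -0.082 to 0.13 without 1 array, and Cdkn1b (-0.08) was -0.19 to 0.035 without 1 array. Signal near background limits Ccne2, Cdk6 and the dim Ccne1 probe.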
